A study of Mus musculus with 12 samples.

Results

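The genes described here are Greb1, Muc1, Clca1, Gadd45g, Ckb and Gjb2, 6 genes known as targets of estrogen in the female reproductive tract or in estrogen-responsive cells. They were chosen by name and include every probe annotated to them, 14 of the 25697 probes and 6 of the 16593 named genes on the array. The tissue was oviduct from mice of the outbred ICR stock, 6 weeks old, and the groups are the stages of the estrous cycle, namely proestrus, estrus, metestrus and diestrus. Total RNA of each stage went onto 3 Illumina bead arrays of 1 colour, 12 in all, and the design asks which genes differ between stages. No treatment or genotype separates the stages in the labels, which do not say whether the arrays of a stage are separate animals, pools or repeated hybridisations. The p-values therefore measure only the spread between these arrays, which may be technical.

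Estradiol from the ovarian follicles rises toward proestrus and falls around ovulation, and progesterone from the corpora lutea is the main ovarian steroid afterwards. Estradiol acts mostly through the estrogen receptor encoded by Esr1, which binds DNA at estrogen response elements or through other factors and turns on its targets, the progesterone receptor gene Pgr among them. In the oviduct the receptor is found in epithelium, stroma and muscle. Hormone levels were not analysed here.

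The 4 arrays of replicate 1 stood apart: their median raw intensities were 139.4 to 156.3, and those of the other 8 arrays 99.3 to 104.7. Results of the 6 genes, and counts over the lists of estrogen-responsive genes and relatives, are therefore also given with the replicate number as a block where this changes a call or a count. The labels do not say that arrays of the same replicate number are paired. Differences given by replicate number therefore describe the arrays and are not matched comparisons. The tissue label was checked against markers: Ovgp1, the oviductin gene of secretory cells, lay between 14.80 and 15.78 on every array (normalized log2 intensity), and all 5 tested genes of ciliated cells were detected on all arrays. Esr1 had stage means of 11.11 to 11.30 and missed the threshold across the cycle (limma moderated F, adjusted p = 0.9996). In whole tissue, fewer cells of a type and less RNA per cell cannot be told apart.

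Upstream sequence from RefSeq (GRCm38.p6) was matched for 5 of the 6 genes, with Clca1 the exception. It is shown as a description and does not test estrogen control. The 250 bases before the annotated start were searched on both strands for the estrogen response element, GGTCA and TGACC with any 3 bases between them. None of the 6 member windows held it (the table holds 2 for Greb1), against 0.0639% of the 32851 windows in the table. At so low a share, finding none is uninformative. The GGTCA arm of the element, written TGACC on the other strand, was found in 3 member windows, both of Greb1 and that of Gjb2, and in 35.2% of all windows. The annotated Greb1 gene reaches further upstream than both of its windows, and the sequence before that outermost end was not searched. The stretches around the arm are shown for Greb1 (chr12:16800958-16800986, minus strand) and Gjb2 (chr14:57104877-57104905, minus strand), with the arm in capitals.
Greb1: ccaagcaacaaaTGACCtctgtccccgga
Gjb2: tggggtggggagTGACCtaggctccagga

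The other 3 genes had a TATA box, TATAAA, close to the start, which 12.4% of all windows held somewhere in their 250 bases. Counted from the start, it began at -31 in Muc1, -27 in Gadd45g and -28 in Ckb. The last 60 bases before each start are shown for Muc1 (chr3:89228996-89229055, plus strand), Gadd45g (chr13:51846615-51846674, plus strand) and Ckb (chr12:111672339-111672398, minus strand), with the TATA box in capitals. The GC box, GGGCGG, was found in the windows of Muc1 and Gjb2 and in 32.7% of all windows, and the AP-1 motif, TGANTCA, in none of the 6 and in 6.75% of all. The motifs do not overlap each other in these windows. A match describes these letters only.
Muc1: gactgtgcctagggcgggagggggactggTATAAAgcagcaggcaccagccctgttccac
Gadd45g: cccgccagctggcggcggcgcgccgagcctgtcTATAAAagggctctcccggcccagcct
Ckb: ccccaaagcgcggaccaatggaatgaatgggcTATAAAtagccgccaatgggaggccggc

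The 6 genes did not share a pattern over the cycle. Clca1 was detected at estrus only, Gjb2 had its highest mean at estrus and its lowest at diestrus, Greb1 was highest at proestrus, and the arrays of Muc1, Ckb and Gadd45g overlapped between most stages. Of the 6, 2 passed the test across the cycle, Clca1 and Gjb2 (limma moderated F), where 5.37% of the 10144 tested genes passed. With the replicate block 3 passed, Greb1 being added, where 16.4% of tested genes passed. All 6 genes had a probe that passed the detection filter, and 12 of their 14 probes did, 11 of them detected on all 12 arrays. The exception was Clca1, which passed through its estrus arrays alone.

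**Figure D1:**
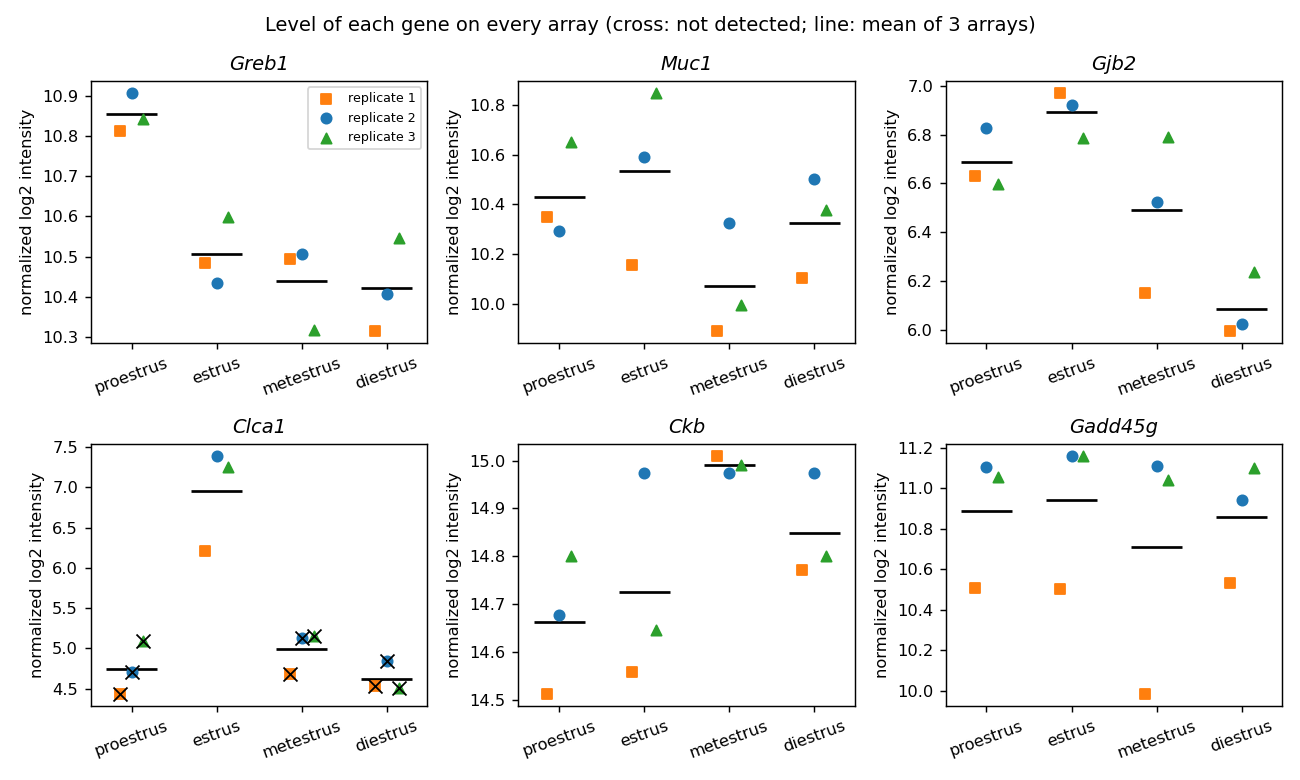
Normalized log2 intensity (y axis) of each of the 6 genes at the 4 stages (x axis), with 1 point per array, shaped by replicate number, and a line at the mean of 3 arrays; crosses mark arrays on which the gene was not detected. The 3 estrus arrays of Clca1 stand alone above the rest, as do the 3 proestrus arrays of Greb1, and replicate 1 lies below replicates 2 and 3 for Gadd45g at every stage.

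Greb1 encodes a chromatin-bound cofactor of the estrogen receptor and was named for its regulation by estrogen in human breast cancer cells. Its brightest probe read 10.81, 10.91 and 10.84 on the proestrus arrays of replicates 1, 2 and 3 (normalized log2 intensity). At estrus it read 10.48, 10.43 and 10.60. The metestrus arrays gave 10.49, 10.51 and 10.32 and the diestrus arrays 10.31, 10.41 and 10.55. All 3 proestrus arrays thus lay above the other 9, a separation seen for 2.78% of tested genes, and the other 3 stages overlapped.

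Proestrus exceeded diestrus by 0.43 ± 0.11 (log2, SE, n = 3 arrays per stage), a 1.35-fold difference that missed the threshold (limma, adjusted p = 0.054) and passed with the replicate block (limma, adjusted p = 0.016). Metestrus lay 0.41 below proestrus (log2 difference -0.41 ± 0.11; limma, adjusted p = 0.061, and 0.019 with the block). Estrus also lay below proestrus, by -0.35 ± 0.11, and did not pass (limma, adjusted p = 0.35, and 0.12 with the block). The step was seen in each replicate, with estrus minus proestrus at -0.33, -0.47 and -0.24. Across the cycle the adjusted p was 0.11 without the block and 0.035 with it (limma moderated F).

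The 3 probes of Greb1 behaved alike. Proestrus had the highest mean on each, 10.85, 10.30 and 8.28, against diestrus means of 10.42, 9.92 and 7.75. Their correlations over the 12 arrays, after the mean of each replicate number was removed, were 0.87 to 0.94. For proestrus against diestrus over all kept probes none of the 3 passed without the block (limma, adjusted p = 0.068, 0.18 and 0.22 for probes 1, 2 and 3), and each passed with it (limma, adjusted p = 0.021, 0.033 and 0.013).

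Muc1 encodes a transmembrane mucin of the apical surface of epithelia, a barrier to attachment, and in mouse uterus estrogen raises it. Its brightest probe read 10.35, 10.29 and 10.65 at proestrus and 10.16, 10.59 and 10.85 at estrus in replicates 1, 2 and 3. It read 9.89, 10.33 and 9.99 at metestrus and 10.10, 10.50 and 10.38 at diestrus. Metestrus had the lowest mean, 10.07 ± 0.23 (SD, n = 3), and estrus the highest, 10.53 ± 0.35, but the arrays of these stages overlapped.

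Metestrus was below estrus by -0.46 ± 0.20 (log2, SE), or 1.38-fold, and did not pass (limma, adjusted p = 0.36, and 0.076 with the block). The difference was negative in each replicate, at -0.27, -0.26 and -0.85. Muc1 missed the threshold across the cycle (limma moderated F, adjusted p = 0.59, and 0.14 with the block). The list of epithelial markers, with 4 of 5 genes tested, had summed levels of 12690 to 15380 at estrus and 13480 to 16030 at metestrus (linear normalized intensity). These ranges overlapped, and that of metestrus was the higher. Of the 4 genes, 1 was higher at estrus than at metestrus, where 1.77% of tested genes were. It was the keratin gene Krt7, named here after its values were seen, with means of 10.03 at estrus and 9.13 at metestrus (limma, adjusted p = 0.0035). The summed level of the list thus did not follow Krt7. The part of epithelial cells in the Muc1 values was not tested.

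The 4 probes of Muc1 differed in their order of stages. Metestrus was lowest on all 4, but the highest stage was estrus on probes 1 and 2, proestrus on probe 3 and diestrus on probe 4. Probe 2 parted metestrus (9.33, 9.43 and 9.36) from estrus (9.65, 9.83 and 9.90) without overlap, as for 8.53% of tested genes, a difference of -0.42 ± 0.11 (log2, SE). Over all kept probes it missed the threshold without the block (limma, adjusted p = 0.12) and passed with it (limma, adjusted p = 0.029). Probes 1, 3 and 4 missed the threshold for that pair also with the block (limma, adjusted p = 0.089, 0.094 and 0.78). Correlations between the 4 probes ran from 0.24 to 0.74 over the 12 arrays, lower than for Greb1. The transcript forms each probe reports are not given in the sources used here.

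**Figure D2:**
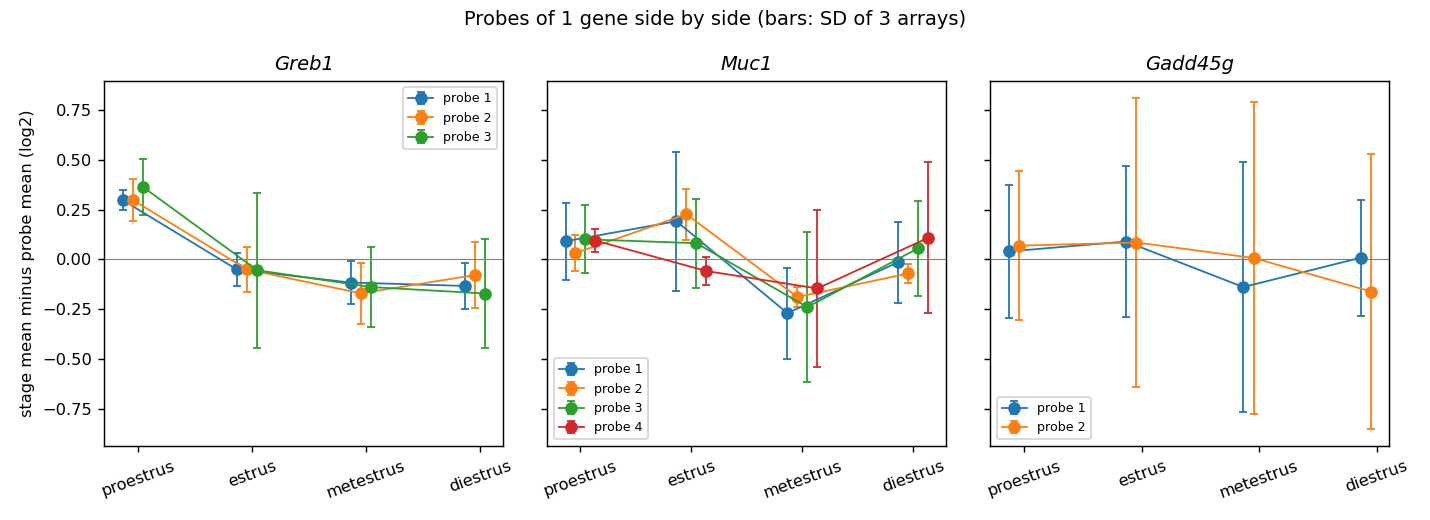
Stage mean minus the mean of the probe over stages (y axis, log2) for each kept probe of Greb1, Muc1 and Gadd45g at the 4 stages (x axis), numbered from the brightest, with the SD of 3 arrays as bars. The 3 Greb1 probes all stand highest at proestrus and the 4 Muc1 probes all stand lowest at metestrus, while the bars of Gadd45g span its stages.

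Clca1 encodes a secreted protein of mucus-making goblet cells that acts on chloride channel activity. It is the gene earlier called Clca3 or gob5 in mouse, and its NCBI Gene identifier on the array is 23844. Its probe had raw intensities of 194, 185 and 167 at estrus in replicates 1, 2 and 3. The proestrus arrays had 75.6, 82.8 and 88.5, the metestrus arrays 87.5, 90.5 and 91.8, and the diestrus arrays 83.8, 82.3 and 77.3. The detection p was 0 on the 3 estrus arrays and 0.068 to 0.78 on the other 9, so that the gene was detected on 3 of 3 estrus arrays and on 0 of 9 others.

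On the normalized log2 scale the estrus mean was 6.95 ± 0.64 (SD, n = 3), against measured means of 4.63 at diestrus, 4.74 at proestrus and 4.99 at metestrus, which are not well above background. A fold is therefore given as a bound, set against the dimmest detected probe of each array. Estrus was at least 2.49-fold higher than proestrus (limma, adjusted p = 0.0020), at least 2.65-fold higher than metestrus (limma, adjusted p = 0.0029) and at least 2.81-fold higher than diestrus (limma, adjusted p = 9.2e-04). These bounds are on the background-corrected scale and depend on that correction. The mean raw intensity was 182 at estrus against 82.3, 89.9 and 81.1 at proestrus, metestrus and diestrus. Without background correction the log2 difference of estrus over proestrus was 1.17 (limma, adjusted p = 0.0053), that of metestrus minus estrus -1.02 (0.0069) and that of estrus over diestrus 1.22 (0.0022), smaller than the bounds. The 3 estrus arrays lay above all others, as for 1.58% of tested genes.

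Clca1 passed the filter only through estrus, so its calls in part restate the filter. Without a filter, over all 16593 named genes, estrus against proestrus still passed (limma, adjusted p = 0.0042). Fitted log2 differences of estrus over proestrus were 1.78, 2.68 and 2.16 in replicates 1, 2 and 3. Among proestrus, metestrus and diestrus, where the gene was not detected, its values have no order.

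Markers of other cell types were also higher at estrus. Of 12 oocyte genes 9 were tested, and 7 of these rose from proestrus to estrus, where 0.858% of all tested genes did. From estrus to metestrus 7 were lower, where 1.77% were, and 5 were higher at estrus than at diestrus, where 1.65% were. Their summed level was 1763 to 2245 at estrus against 363.4 to 566.4 at proestrus, 403.1 to 628.6 at metestrus and 690.4 to 1024 at diestrus (linear normalized intensity). Zp1, Zp2 and Dppa3 did not pass the filter. Of the 9 tested, 8 were detected on all estrus arrays, against 3 at proestrus, 4 at metestrus and 6 at diestrus. The counts of genes that passed the filter through estrus would in part restate the filter. Of 11 granulosa, theca and luteal genes 8 were tested, and 5 rose from proestrus to estrus, 7 were lower at metestrus than at estrus and 7 were higher at estrus than at diestrus, against those same shares of all tested genes. They had sums of 2704 to 3114 at estrus, 1005 to 1265 at proestrus, 360.9 to 533.3 at metestrus and 474.7 to 584.3 at diestrus, and Cyp19a1, Lhcgr and Amh did not pass the filter. All 8 tested were detected on all estrus arrays. On all arrays of proestrus, metestrus and diestrus 5, 5 and 4 were, so the same limit holds.

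Neutrophil genes, 6 of 7 tested, summed to 1787 to 1901 at estrus, 1156 to 1363 at proestrus, 541.7 to 1188 at metestrus and 908.3 to 1240 at diestrus, with 0 members higher at estrus than at proestrus or diestrus, and 2 lower at metestrus than at estrus. On all estrus arrays 6 of these genes were detected, and on all proestrus, metestrus and diestrus arrays 3, 3 and 4. Adipocyte genes, 4 of 7 tested, summed to 2456 to 2542 at estrus, 1332 to 1503 at proestrus, 1652 to 2227 at metestrus and 2068 to 2239 at diestrus. Of these, 3 rose from proestrus to estrus, 1 was lower at metestrus than at estrus and 0 were higher at estrus than at diestrus. For both lists the shares of all tested genes in the same comparisons were 0.858%, 1.77% and 1.65%. Genes of stratified or cornified epithelium, 3 of 7 tested, summed to 1075 to 1434 at estrus and 1082 to 1416 at proestrus, and Krt5, Krt1, Ivl and Dsg1a did not pass the filter. The part of these cells in the Clca1 result was not tested.

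Gjb2 encodes a connexin, a subunit of the gap junction channels that join epithelial cells, and estrogen raises it in rat endometrium. Only its brightest probe passed the detection filter. That probe read 6.63, 6.83 and 6.60 at proestrus and 6.97, 6.92 and 6.79 at estrus in replicates 1, 2 and 3 (normalized log2 intensity). It read 6.15, 6.52 and 6.79 at metestrus and 5.99, 6.03 and 6.24 at diestrus. The estrus and the proestrus arrays each lay wholly above the diestrus arrays, as for 8.73% and 11.5% of tested genes in those pairs, and the metestrus arrays spread between them.

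Estrus exceeded diestrus by 0.81 ± 0.16 (log2, SE), or 1.75-fold (limma, adjusted p = 0.023). The difference was 0.98, 0.89 and 0.55 in replicates 1, 2 and 3. The call was lost when an estrus array of replicate 1, 2 or 3 was left out (limma, adjusted p = 0.085, 0.11 and 0.066) or a diestrus array of replicate 1 or 2 (0.089 and 0.10). It was also lost in the deposited values without a block (limma, adjusted p = 1). Without background correction the difference was smaller, 0.47, and still passed (limma, adjusted p = 0.040), so its size depends on that correction. Proestrus exceeded diestrus by 0.60 ± 0.16, or 1.52-fold, which missed the threshold (limma, adjusted p = 0.057) and passed with the block (limma, adjusted p = 0.017).

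The adjusted p across the cycle was 0.044 (limma moderated F), and 0.013 with the block. Leaving out an array ended that call in 10 of 12 cases, with an adjusted p of 0.011 to 0.15. The call without the block was also lost with no background correction (limma moderated F, adjusted p = 0.076), with median scaling (0.051) and with no filter (0.052). It was lost in the deposited values too. Estrus and proestrus, neighbours in the order of levels, differed by 0.21 ± 0.16, and the 95% interval of the difference was -0.15 to 0.56.

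The other 2 Gjb2 probes gave little signal. Probe 2 was detected on 2 arrays, both at estrus, with raw intensities of 148 and 107 in replicates 1 and 2. Its normalized log2 means ran 5.37, 5.64, 5.25 and 4.997 from proestrus through diestrus, the same order of stages as probe 1, without a test. Probe 3 was detected on 0 arrays. The raw intensity of probe 1 itself was 108 to 281, and the dimmest detected probe of each array is drawn beside it in the plot of raw intensities.

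**Figure D3:**
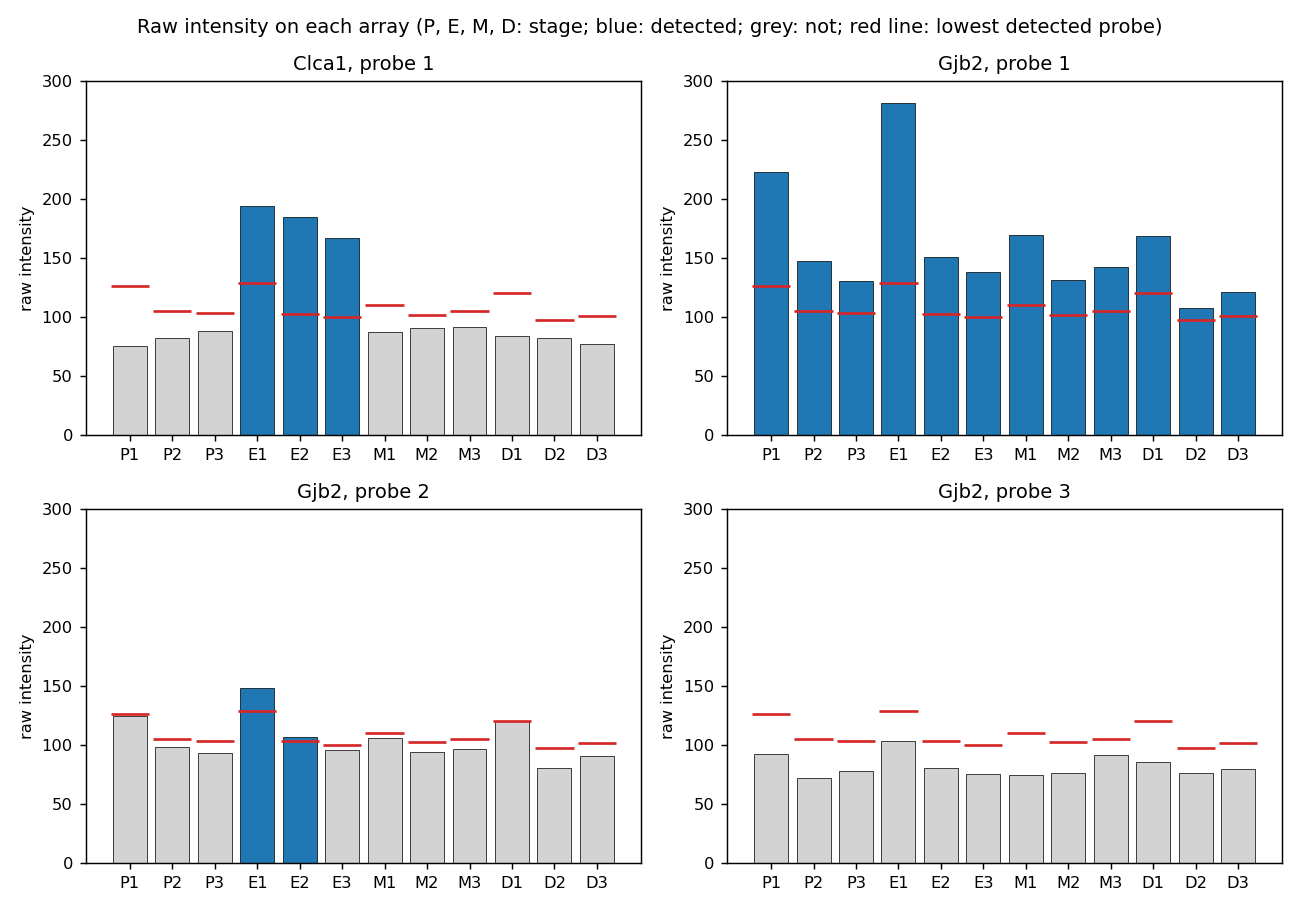
Raw intensity (y axis) of the Clca1 probe and the 3 Gjb2 probes on each of the 12 arrays (x axis: P, E, M and D for the stage, then the replicate number), blue where detected and grey where not, with a red line at the lowest detected probe of that array. Clca1 stands above the line on the 3 estrus arrays alone, Gjb2 probe 1 on all 12 and probe 2 on 2 estrus arrays.

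Ckb encodes the brain-type creatine kinase, which buffers ATP in the cytosol and was known early as the estrogen-induced protein of rat uterus. Its raw intensities were the highest of the 6 genes' probes, 34805, 22180 and 25109 at proestrus and 36036, 26709 and 21076 at estrus in replicates 1, 2 and 3. They were 33272, 28237 and 27932 at metestrus and 38267, 24526 and 24841 at diestrus. The normalized log2 values were 14.51, 14.68 and 14.80 at proestrus and 15.01, 14.97 and 14.99 at metestrus, so these stages did not overlap, as for 13.1% of tested genes in that direction. They were 14.56, 14.97 and 14.65 at estrus and 14.77, 14.97 and 14.80 at diestrus.

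Metestrus exceeded proestrus by 0.33 ± 0.14 (log2, SE), or 1.25-fold, and did not pass (limma, adjusted p = 0.22, and 0.068 with the block). The raw intensity of replicate 1 was instead lower at metestrus than at proestrus. Ckb missed the threshold across the cycle (limma moderated F, adjusted p = 0.54, and 0.18 with the block). Quantile normalization gave Ckb only 9 distinct values over the 12 arrays. In replicate 2 its values at estrus, metestrus and diestrus are equal, because the probe had the same rank on those arrays, though the raw intensities differ.

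Gadd45g encodes a small protein induced by stress and growth arrest that acts on MAP kinase signalling. Its brightest probe read 10.51, 11.11 and 11.06 at proestrus and 10.50, 11.16 and 11.16 at estrus in replicates 1, 2 and 3. It read 9.99, 11.11 and 11.04 at metestrus and 10.53, 10.94 and 11.10 at diestrus. Replicate 1 was the lowest array at every stage, and in replicates 2 and 3 alone the 8 arrays lay between 10.94 and 11.16.

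The largest difference, metestrus minus estrus, was -0.23 ± 0.31 (log2, SE; limma, adjusted p = 0.88), with a 95% interval of -0.90 to 0.44. It was -0.52 in replicate 1 and -0.052 and -0.12 in replicates 2 and 3. Without metestrus replicate 1 it became 0.13. Across the cycle the adjusted p was 0.9996, and 0.53 with the block (limma moderated F). On the other probe, too, replicate 1 was the lowest array at every stage, at 6.91 to 7.51 against 8.07 to 8.45 in replicates 2 and 3. That probe had stage means of 7.71 to 7.95 and its correlation with the brightest was 0.42 over the 12 arrays. No pair of stages passed for Gadd45g in either fit. The SE of its differences was 0.31 without the block and 0.13 with it, beside 0.11 and 0.10 for Greb1 and 0.16 and 0.14 for Gjb2.

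Between successive stages, 1 of the 6 genes was higher at estrus than at proestrus, Clca1, where 0.858% of tested genes were. From estrus to metestrus 1 was lower, again Clca1, where 1.77% of tested genes were. From metestrus to diestrus 0 passed (limma, 1 at an unadjusted p under 0.05, 0 with the block), where 0.069% of tested genes passed without the block and 0.296% with it. For proestrus against diestrus 0 passed, where 4.86% of tested genes did (limma, adjusted p under 0.05). With the block 2 passed, Greb1 and Gjb2, where 16.3% of tested genes did. At an unadjusted p under 0.05 the count without the block was 2. The share of all tested genes at an unadjusted p under 0.05 is not given here for any pair. Such counts are therefore not read as an excess.

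For estrus against diestrus 2 were higher at estrus, Clca1 and Gjb2, where 1.65% of tested genes were. For metestrus against proestrus 0 passed, where 5.33% of tested genes did (limma, adjusted p under 0.05). With the block 1, Greb1, was lower, where 16.5% of tested genes passed. At an unadjusted p under 0.05 the count without the block was 2. The median of the 6 log2 differences was 0.082 from proestrus to estrus and -0.32 from estrus to metestrus, against 0.0048 and 0.017 over all tested genes. For proestrus against diestrus the median was 0.11, against -0.018 over all tested genes.

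**Figure D4:**
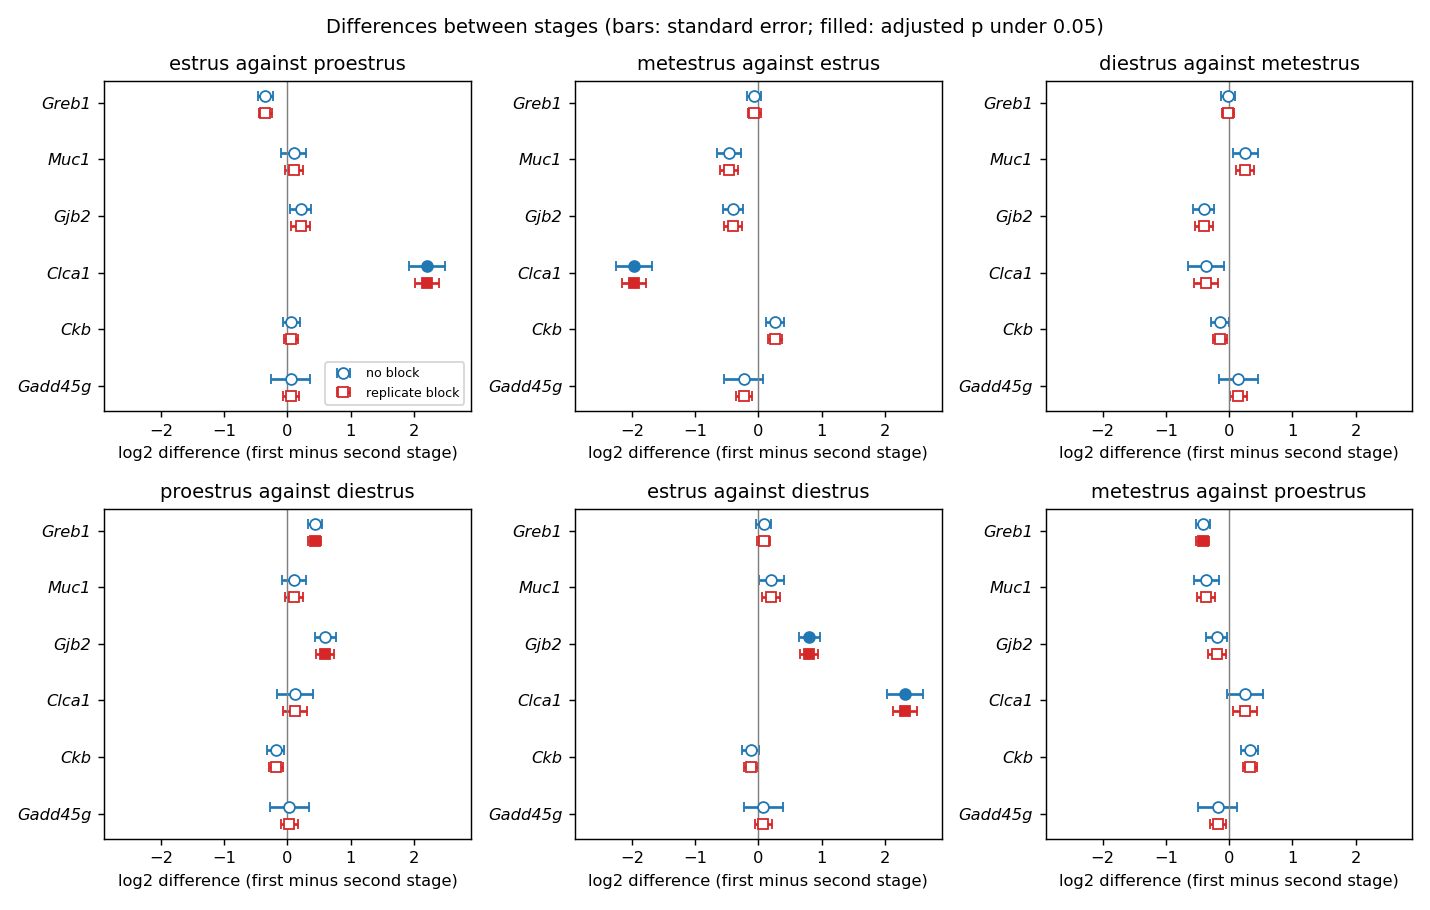
Log2 differences (x axis, the stage named first minus the other) of the 6 genes (y axis) in the 6 pairs of stages, with standard errors, without a block (circles) and with the replicate block (squares), filled where the adjusted p is under 0.05. Clca1 alone is filled for estrus against proestrus and metestrus against estrus, and Greb1 and Gjb2 are filled for proestrus against diestrus with the block only.

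The 6 genes did not move together. After the mean of each replicate number was removed, the closest pairs over the 12 arrays were Clca1 and Gjb2 (r = 0.60) and Muc1 and Clca1 (r = 0.49). Ckb had negative correlations with all 5 others, from -0.69 with Gadd45g to -0.16 with Clca1. These values describe arrays that share a normalization and are given without a test.

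For each gene the most similar patterns on the array, by the same measure, differed. Those closest to Greb1 were Zfp369, a zinc finger gene (r = 0.98), Wnt5a, a Wnt ligand gene (r = 0.97), and Tcam1 (r = 0.95). Zfp369 was detected on 2 of 3 proestrus arrays and on 1 of 3 at each other stage. Tcam1 was detected on 0 diestrus arrays, so values of both lie partly near background. Wnt5a had a mean of 10.53 at proestrus and of 10.14 to 10.17 at the other stages. Those closest to Clca1 were Sprr2d, a cornified envelope gene of a near-identical family (r = 0.97), Lgmn, a lysosomal protease gene (r = 0.97), and Ezhip (r = 0.97). Sprr2d and Ezhip were likewise detected on all 3 estrus arrays and on 0 others, and Lgmn had a mean of 10.74 at estrus and of 10.22 to 10.27 elsewhere.

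Those closest to Gjb2 were Slc4a3, an anion exchanger gene (r = 0.95), Krt15, a keratin gene (r = 0.95), and Klk1, a kallikrein gene (r = 0.94). Klk1 had means that ran 9.58, 9.55, 9.17 and 8.75 from proestrus through diestrus. Those closest to Muc1 were Arhgef39 (r = 0.92), Pou5f1, a transcription factor gene (r = 0.91), and Zap70, a kinase gene of T cells (r = 0.90). Pou5f1 was detected on only 1 of 3 metestrus and 2 of 3 diestrus arrays. Those closest to Ckb were Masp2 (r = 0.94), Cul7 (r = 0.94) and Abcg4 (r = 0.93), and Masp2 was detected on only 2 of 3 proestrus arrays.

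Gadd45g was closest to Ndufb7, a respiratory chain gene (r = 0.98), Snrpg, a splicing gene (r = 0.98), and Krtcap3 (r = 0.98), and 222 genes had r over 0.9 with it. Without metestrus replicate 1 these 3 values were 0.94, 0.93 and 0.93. Over all 6 genes these are the highest among many correlations over 12 arrays.

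Relatives of the 6 genes were read from family lists. Across the cycle 5.37% of all tested genes passed, and 16.4% with the block. Of 8 tested connexins only Gjb2 passed across the cycle (limma moderated F), and 2 passed with the block, and the brightest, Gja1, another gap junction gene, had means that ran 13.08, 13.04, 12.66 and 12.74 from proestrus through diestrus (adjusted p = 0.33, and 0.022 with the block). The mitochondrial creatine kinase gene Ckmt1, unlike Ckb, passed (limma moderated F, adjusted p = 0.0080), with means that ran 11.06, 10.74, 10.30 and 10.19. Proestrus exceeded diestrus by 0.88 ± 0.14 for Ckmt1 (limma, adjusted p = 0.0046), where the Ckb difference was -0.18 ± 0.14. Whether the 2 genes differ was not tested.

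Gadd45a, a stress gene of the same family as Gadd45g, also passed (limma moderated F, adjusted p = 0.0070), with means that ran 12.69, 12.30, 11.82 and 12.07. It was the only Gadd45 gene of 3 tested to pass without the block, and with it Gadd45b, named here after its values were seen, passed too (limma moderated F, adjusted p = 0.58 without and 0.022 with the block). Of 3 tested mucins 0 passed (limma moderated F, 2 at an unadjusted p under 0.05, 2 with the block), and Muc1 was the brightest. The shares of all tested genes beside the Gadd45 and mucin counts were again 5.37% without and 16.4% with the block, both at an adjusted p under 0.05. The share at an unadjusted p under 0.05 is not given here. Clca3b, the other tested Clca gene, passed (limma moderated F, adjusted p = 0.0076). It was not detected at metestrus, was at least 1.33-fold higher at estrus than there, and belongs to a family of similar genes whose members a probe may not tell apart.

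Other estrogen-responsive genes of the tract were read from a list of 30, with 27 on the array and 25 tested. The list was drawn up with earlier results of these data known, so its counts are not independent of these data. Of the 25, 8 passed across the cycle, and 11 with the block (limma moderated F), where 5.37% and 16.4% of all tested genes passed. For proestrus against diestrus 9 were higher and 0 lower, where 2.21% of tested genes were higher, with a median of 0.22 on the log2 scale against -0.018 over all. From proestrus to estrus 0 rose and 3 fell, where 0.158% of tested genes fell, and from estrus to metestrus 0 rose and 4 fell, where 1.77% fell. At estrus 5 were higher than at diestrus, where 1.65% of tested genes were, and at metestrus 10 were lower than at proestrus, where 2.43% were.

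With the block the number of these 25 that passed was 10 for proestrus against diestrus (16.3% of tested genes), 5 for estrus against proestrus (3.06%), 7 for metestrus against estrus (8.35%), 10 for estrus against diestrus (6.9%) and 13 for metestrus against proestrus (16.5%). The 3 that fell from proestrus to estrus rest on few arrays: the count was 0 without proestrus replicate 2 or 3 and 1 without estrus replicate 1 or 2. In the deposited values without a block, 1 of the 25 passed across the cycle, where 67 of 10144 tested genes did. For proestrus against diestrus 2 of the 25 passed in those values, and the share of all tested genes for that pair is not given here.

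The 6 of lowest p in that list had their highest means at different stages. Padi2, a peptidylarginine deiminase gene, had means that ran 8.65, 7.79, 6.65 and 6.48 from proestrus through diestrus. Aqp5, a water channel gene, had 10.34, 9.88, 8.96 and 8.63 in the same order, Ramp3, a co-receptor gene, 10.43, 9.33, 9.16 and 8.60, and Pgr 8.58, 7.80, 7.77 and 7.35. These 4 had their highest means at proestrus, as Greb1 had. Sprr2f, a cornified envelope gene of a near-identical family, had 8.56, 9.81, 6.88 and 7.14, and Lcn2, an iron-scavenging protein gene, 12.69, 13.06, 11.56 and 11.84. These 2 had their highest means at estrus, as Clca1 and Gjb2 had. Estrus minus proestrus missed the threshold for Sprr2f (1.25; limma, adjusted p = 0.094), Lcn2 (0.37; 0.71), Aqp5 (-0.46; 0.22) and Gjb2 (0.21). Padi2, Ramp3 and Pgr passed for that pair.

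**Figure D5:**
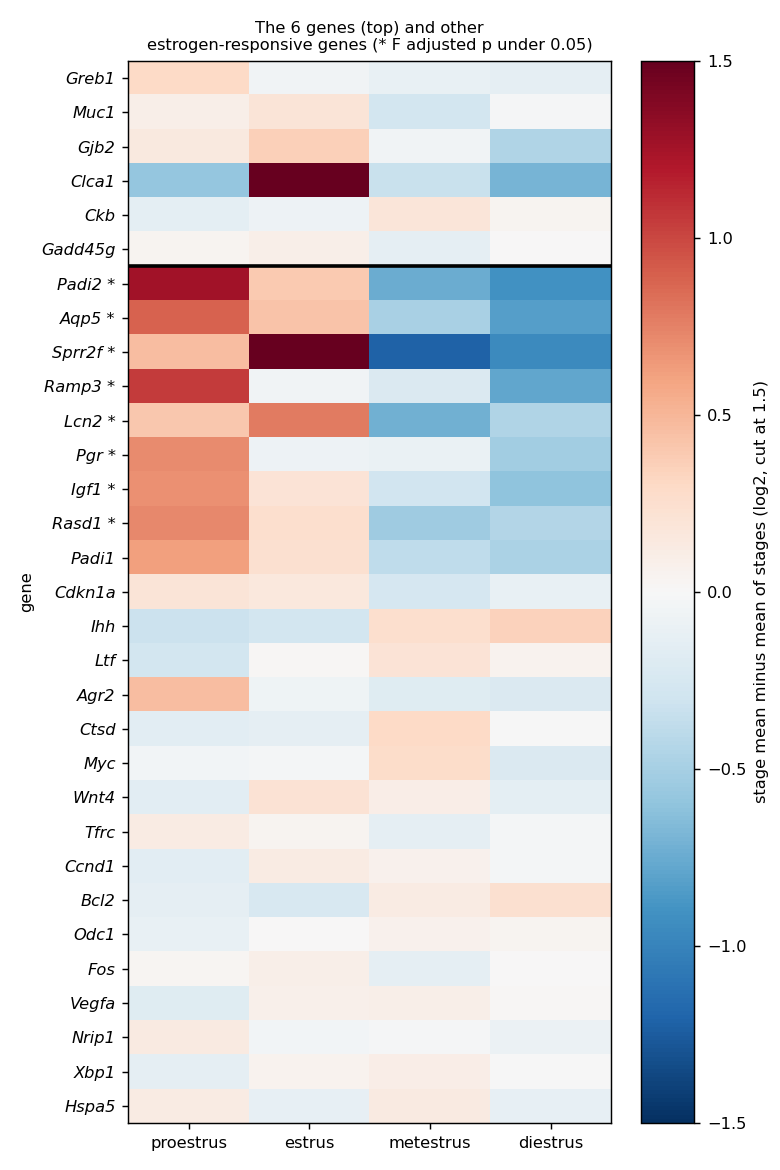
Stage mean minus the mean over stages (colour, log2, cut at 1.5) of the 6 genes (above the line) and the 25 other tested estrogen-responsive genes (below it, ordered by F p) at the 4 stages (x axis); asterisks mark the 8 listed genes past the F test, and Clca1 and Gjb2, which also passed, bear no mark. Padi2, Aqp5, Ramp3 and Pgr have their highest means at proestrus, and Clca1, Gjb2, Sprr2f and Lcn2 at estrus.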

How the data were processed

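Biotin-labelled cRNA was hybridised, per the labels' protocols. Per the file headers, each array has a deposited intensity per probe, not normalized, beside its detection p-value. The series matrix holds the authors' processed intensities on a linear scale, some below 0. Which software made them is not given in these sources.

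Raw intensities were corrected by normexp from the detection p-values, quantile normalized and log2 transformed by neqc (limma 3.58.1 in R 4.3.3; 16 was added before the log). Probes with a detection p under 0.01 on at least 3 arrays were kept (14778), and each gene took its kept probe of highest mean (10144 genes). Probes were named from the platform annotation, in which 23978 have 1 symbol and 1719 none, and all 14 probes described match NCBI Gene identifiers. A fit with 1 mean per stage (8 residual degrees of freedom) gave a moderated F and 6 pairs of stages, adjusted by Benjamini-Hochberg over all genes, threshold 0.05. The fit was also run on simulated data with independent noise on each array. Those data lack the deviations that arrays of 1 replicate number share, so the run does not bear on the calls here.

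Same-numbered arrays of different stages correlated after stage means were removed (0.62 to 0.81 for replicate 1, 0.26 to 0.51 for 2, 0.36 to 0.55 for 3), as did replicates 2 and 3 with each other (0.22 to 0.54), so the number mostly carries the array set. Lists and genes were chosen with earlier results of these data known. Named beyond the 6 were 3 genes of closest pattern each, up to 6 list genes of lowest F p, and of each family those past the test and the brightest. Alternatives were the block, array set, background, scaling, deposited values, filter, probe averaging and left-out arrays.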

Additional observations from a re-analysis of the deposited data

How the results depend on the processing

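Clca1 kept its calls for estrus against proestrus, metestrus and diestrus under every alternative in which it was tested; it was not tested when detection on all 12 arrays was required. Its differences were smaller without background correction: estrus over proestrus went from 2.21 to 1.17, metestrus minus estrus from -1.96 to -1.02 and estrus over diestrus from 2.33 to 1.22 (log2). In the deposited values every Clca1 array outside estrus lay under the floor of 16 set before the log. Those arrays shared 1 value and had no spread, so the calls of Clca1 in the deposited values add little. Across the cycle 545 of the 10144 tested genes were called in the main fit. Of the same 10144 tested genes 613 were called without background correction, 540 with median scaling, 67 in the deposited values and 1444 in the deposited values with the block. With detection on all 12 arrays 491 of 8315 were called, and with no filter 538 of 16593. The number of the 6 genes called across the cycle, 2, was 1 with no background correction, median scaling, deposited values (also with the replicate block, an alternative chosen after seeing the data), detection on all 12 arrays or no filter. It was 1 to 2 without single arrays. For proestrus against diestrus the count of 0 became 2 with the replicate block, the array set as a block or detection on all 12 arrays, and 1 in replicates 2 and 3 alone, with no background correction, with no filter or in the deposited values with the block. It was 0 to 2 without single arrays. For metestrus against proestrus the count of 0 became 1 under each of those 7 settings. For estrus against diestrus the count of 2 became 1 in the deposited values or with detection on all 12 arrays, and was 1 to 2 without single arrays. With detection on all 12 arrays the counts for estrus against proestrus and metestrus against estrus fell to 0, since Clca1 was not tested. The cause of the other changes was not tested. Across the cycle the replicate block added Greb1 to the genes called, and beyond these counts it changed no other call of the 6 genes. Over all 10144 tested genes, 545 were called across the cycle, 1886 with the array set as a block and 67 in the deposited values. Of the 25 other estrogen-responsive genes, 8 were called across the cycle, 13 with the array set as a block and 1 in the deposited values. In the order estrus against proestrus, metestrus against estrus, proestrus against diestrus, estrus against diestrus and metestrus against proestrus, the counts of 3, 4, 9, 5 and 10 became 5, 9, 11, 10 and 13 with the array set as a block and 0, 1, 2, 0 and 1 in the deposited values. In the deposited values with the replicate block they were 4, 6, 10, 8 and 11. From the 6 arrays of the stages compared alone, 1 in place of 3 was called for estrus against proestrus. Without single arrays they ran 0 to 4, 4 to 4, 6 to 10, 4 to 6 and 8 to 10. Shares of all tested genes for pairs of stages under these alternatives are not given here. The changes are therefore not read as particular to the 6 or the 25 genes.

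Small differences changed sign. Diestrus minus metestrus of Greb1 (-0.017) was 0.064 in replicates 2 and 3 alone, 0.013 with median scaling and 0.014 with probes averaged. That of Gadd45g (0.15) was -0.053 in replicates 2 and 3 and -0.011 with probes averaged. With median scaling, estrus minus proestrus was -0.042 for Gadd45g and -0.024 for Ckb. Without single arrays, Gadd45g ran from -0.14 to 0.27 for estrus minus proestrus, -0.45 to 0.13 for metestrus minus estrus, -0.22 to 0.35 for diestrus minus metestrus, -0.13 to 0.22 for proestrus minus diestrus, -0.081 to 0.30 for estrus minus diestrus and -0.38 to 0.18 for metestrus minus proestrus. Ckb ran from -0.061 to 0.15 and Muc1 from -0.057 to 0.29 for estrus minus proestrus. For proestrus minus diestrus, Muc1 ran from -0.0070 to 0.19 and Clca1 from -0.053 to 0.27. Greb1 ran from -0.079 to 0.037 for diestrus minus metestrus. Signal near background limits Clca1 and Gjb2, and 3 arrays per stage limit all 6 genes.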
